A study of Mus musculus with 18 samples.

Results

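Cytosolic ribosomal protein genes encode the protein components of the ribosome outside the mitochondria. They were taken by gene symbol: symbols made of Rpl or Rps and a number, with an optional letter (a, l, x or y) and a further number, together with Rplp0, Rplp1, Rplp2 and Rpsa. The rule found 84 of the 23337 symbols in the table, and 82 of these were among the 15482 genes with enough counts to be tested. Of the tested genes, 33 encode proteins of the small subunit and 49 of the large subunit. The 84 include 7 divergent paralogs (Rpl3l, Rpl7l1, Rpl10l, Rpl22l1, Rpl39l, Rps27l and Rps4y2, an older symbol of Rps4l), and the other 77 are called core genes below. The symbol rule leaves out a few ribosomal protein genes with other names, such as Fau and Rpl36al, which are given separately.

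RNA was sequenced from mammary glands of C57BL/6Jx129 mice that were either WT or Cip2a-/-, with 3 libraries in each of 6 groups. The protein Cip2a inhibits the phosphatase PP2A. In each genotype the glands came from untreated mice, from mice 2 weeks after the last dose of the carcinogen DMBA, or from mice at the endpoint, when they were sacrificed with DMBA-induced tumours in any tissue and the gland taken was free of tumour. Treated mice had received 6 weekly doses of 1 mg of DMBA in oil by gavage, from an age of 12 to 14 weeks. The untreated mice are labelled as having no treatment, so DMBA and gavage with oil cannot be told apart. The sources used here do not give the age of the untreated mice or of the mice at the endpoint. They also do not say whether the Cip2a deletion is germline or restricted to a tissue.

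A ribosome joins a small subunit, which reads the messenger RNA, to a large subunit, which forms the peptide bonds. Its proteins are made in matching amounts, and their messenger RNAs belong to the TOP class: the transcript opens with a C followed by a run of pyrimidines (C or T in the DNA), through which mTORC1 and the RNA-binding protein LARP1 control their translation and stability. Some of these proteins also have roles apart from the ribosome, among them Rpl5 and Rpl11, which bind the p53 regulator Mdm2. The measurements here are transcript levels and do not show translation.

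Total counts ranged from 16121743 to 24586404 per library. Cip2a, listed under its older symbol C330027C09Rik, had 15 to 126 counts in the 9 WT libraries and 0 to 1 in the 9 Cip2a-/- libraries. Summed luminal epithelial markers reached 53.5 CPM (the count scaled by library size) in WT endpoint library 1 and 622 to 3628 CPM in the other 17 libraries, so that library was far below the others in these markers. The same library held the highest sums of brown adipocyte, B cell and T cell markers. The labels give no batch or date, but the numbers in the column headers are all higher for the 2-week libraries than for the rest. Their meaning is not given, so time after DMBA and whatever these numbers follow cannot be told apart.

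The region around the start of transcription, where a TOP motif would lie, is shown for the named genes that the results below turn on and that have an entry in the promoter table, from RefSeq (GRCm38.p6). Each line holds the 30 bases centred on the annotated start of transcription, on the gene's own strand and 5′ to 3′, and capitals mark the longest run of pyrimidines. For Rps27l the start in the table lies inside the gene's annotated span.
Rpl28, chr7:4792950-4792979 (+): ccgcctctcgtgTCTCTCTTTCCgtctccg
Rpl14, chr9:120571502-120571531 (+): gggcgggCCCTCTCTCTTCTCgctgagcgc
Rpl12, chr2:32961697-32961726 (+): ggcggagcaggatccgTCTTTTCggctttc
Rplp2, chr7:141447636-141447665 (+): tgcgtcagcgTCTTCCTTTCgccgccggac
Rps6, chr4:86857353-86857382 (-): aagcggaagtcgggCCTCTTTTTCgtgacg
Rps27l, chr9:66946071-66946100 (+): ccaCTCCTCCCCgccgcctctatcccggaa
Rpl22l1, chr3:28805493-28805522 (+): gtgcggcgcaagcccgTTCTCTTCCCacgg

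The marked run was 14 bases in Rpl14, 11 in Rpl28, 10 in Rplp2, Rps6 and Rpl22l1, 9 in Rps27l and 7 in Rpl12. It covers the annotated start, the base at position 16 of each line, in Rpl14, Rpl28, Rplp2 and Rps6. It opens just after that base in Rpl12 and Rpl22l1 and ends before it in Rps27l. There it lies outside a transcript that opens at this start, but inside the gene's annotated span. Of the 82 tested genes, 61 had a promoter entry. A run of at least 8 pyrimidines lay within 15 bases of the start in 27 of the 61 (44.3%), against 13.9% of the 27025 genes in the table. Over the whole 300-base entry (250 bases before the start and 50 after), 4 motifs were searched on both strands. The ETS motif CCGGAAG was found in 25 of 61 (41.0%) against 9.93% of all genes, and AANATGGC, the core of the YY1 site, in 13 (21.3%) against 6.96%. The GC box GGGCGG was found in 38 (62.3%) against 38.2%, and the E-box CACGTG in 6 (9.84%) against 8.09%. These matches describe the letters in these windows and were not tested.

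Together the 84 genes took a few percent of all counts, and the share was highest in endpoint glands. In WT it was 2.93%, 2.70% and 2.77% in untreated libraries 1 to 3, 2.37%, 2.01% and 2.39% at 2 weeks, and 3.81%, 4.32% and 3.42% at the endpoint. In Cip2a-/- it was 2.15%, 3.20% and 3.81% untreated, 2.173%, 2.82% and 2.22% at 2 weeks, and 4.002%, 2.62% and 5.66% at the endpoint. Every WT endpoint library lay above every other WT library, whereas Cip2a-/- endpoint library 2 lay inside the range of the 2-week libraries and Cip2a-/- endpoint library 3 was the highest of all.

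A score that weights each gene equally, the mean over the 76 tested core genes of log2 CPM centred per gene, gave a like order. It was 0.08, -0.17 and -0.11 in the WT untreated libraries, -0.37, -0.55 and -0.38 in WT at 2 weeks, and 0.50, 0.40 and 0.29 in WT at the endpoint. The Cip2a-/- libraries had -0.43, 0.08 and 0.29 untreated, -0.31, -0.13 and -0.35 at 2 weeks, and 0.46, -0.14 and 0.86 at the endpoint. All 6 libraries at 2 weeks were below 0, and all endpoint libraries except Cip2a-/- library 2 were above 0. The spread was wider in Cip2a-/- than in WT in untreated glands (SD 0.37 against 0.13, n = 3 each) and at the endpoint (SD 0.51 against 0.11), and about equal at 2 weeks (SD 0.12 against 0.10). This difference in spread was not tested.

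**Figure D1:**
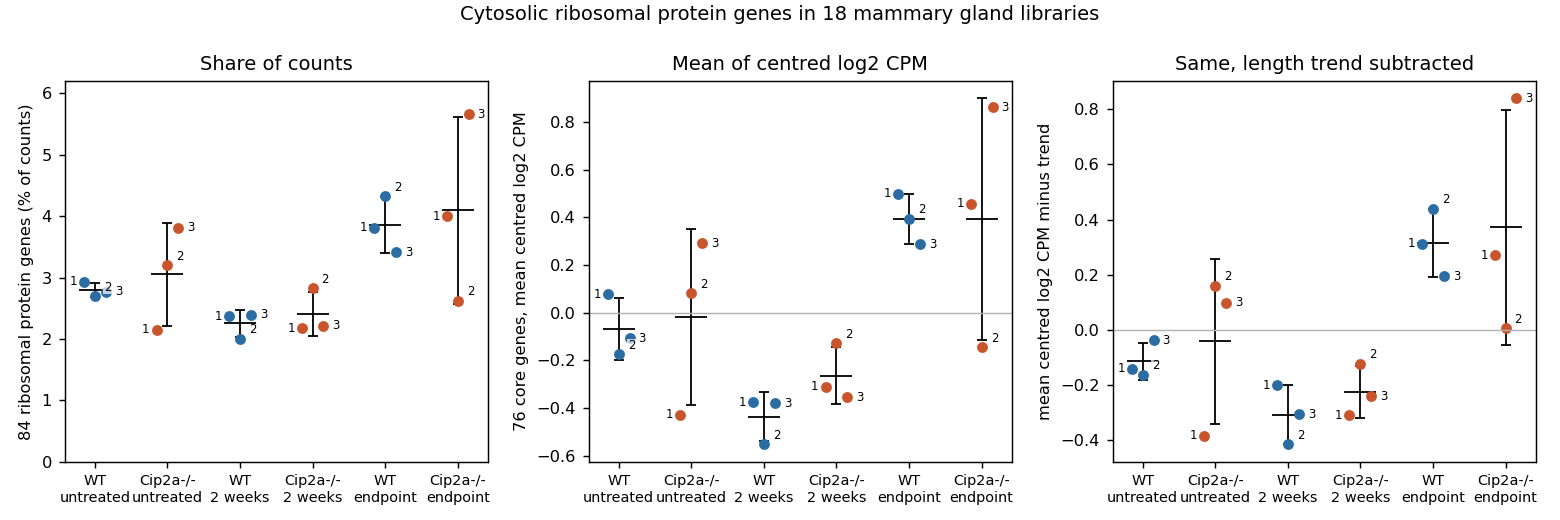
The share of counts of the 84 genes (left, %), the score of the 76 core genes (middle, log2) and the score after subtraction of each library's own trend with transcript length (right, log2) are plotted for 18 libraries in 6 groups. Points are libraries with their replicate number, lines the mean and SD (n = 3). In the right panel all 6 endpoint libraries (0.01 to 0.84) lie above all 6 libraries at 2 weeks (-0.42 to -0.12).

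The genes moved as a block across libraries. Each core gene was correlated with the mean of the other core genes over the 18 libraries, and the median Pearson r was 0.974. For 68 of 76 core genes r was at least 0.9, against 22 of 15400 other tested genes (0.143%). The libraries share their scaling and the 6 groups, so this is a description of these libraries. The lowest core genes were Rpl30 (r = 0.45), Rpl29 (0.49), Rps27 (0.56) and Rpl34 (0.60). Of the 6 tested divergent paralogs, 5 had an r below every core gene, and Rpl22l1 lay above those 4 core genes. The values were -0.39 for Rpl39l, -0.27 for Rps27l, -0.22 for Rps4y2, -0.11 for Rpl3l, 0.08 for Rpl7l1 and 0.70 for Rpl22l1.

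**Figure D2:**
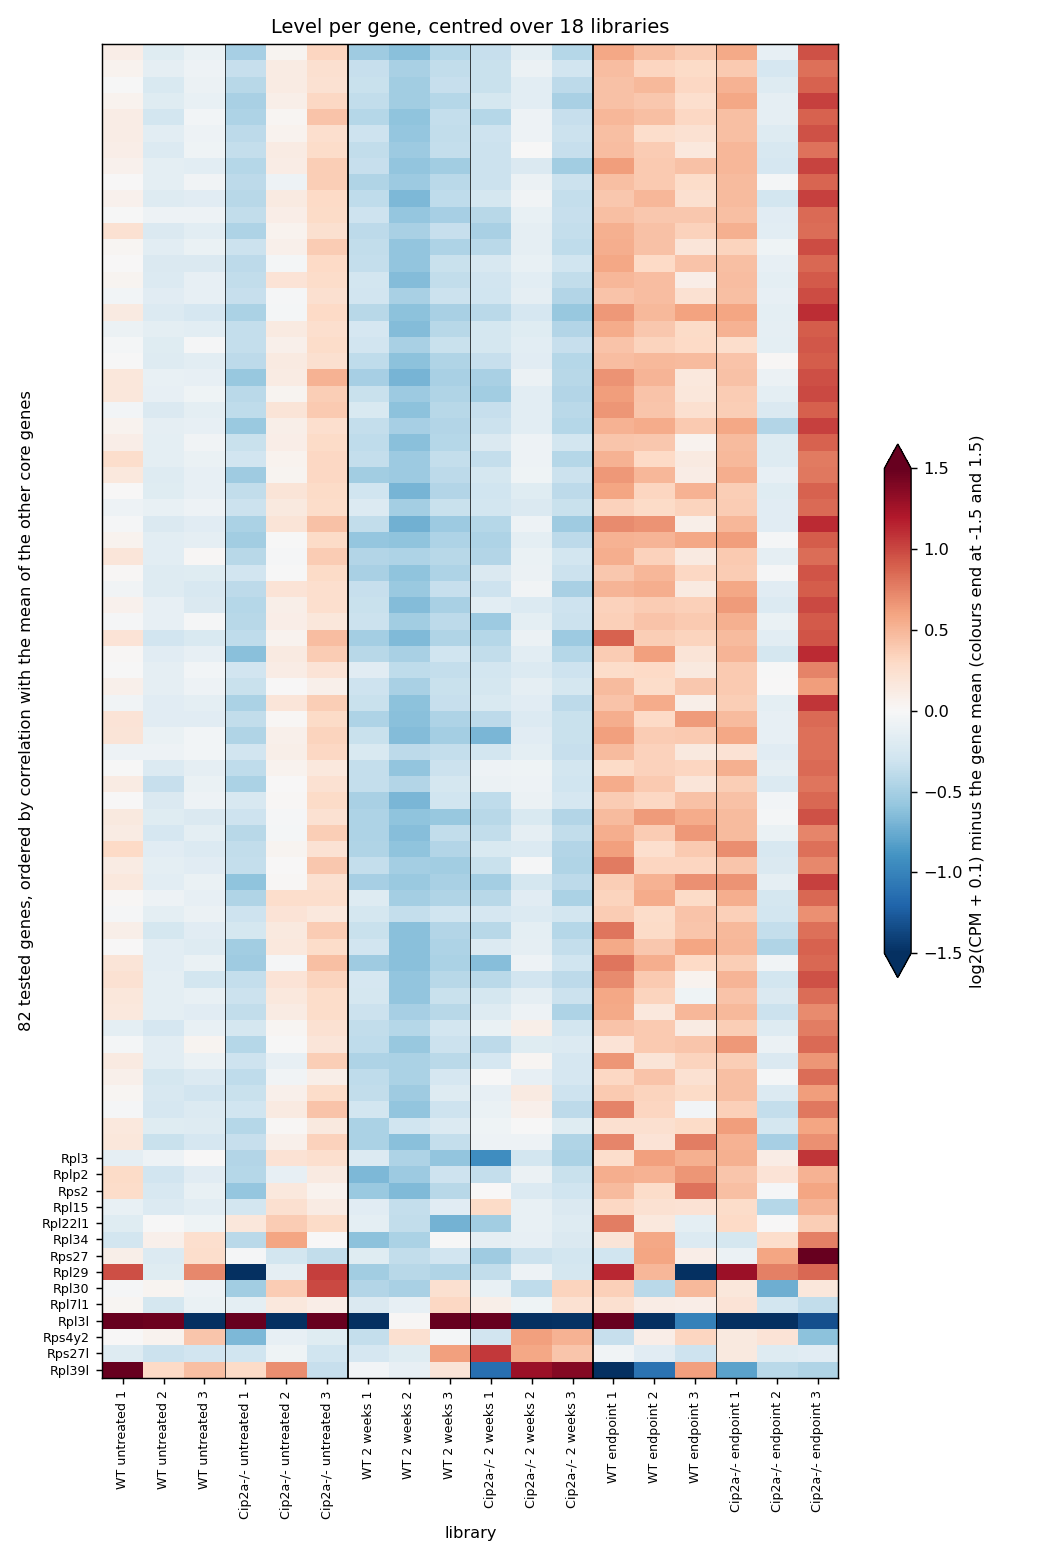
Each row is 1 of the 82 tested genes, ordered by its correlation (r) with the mean of the other core genes and labelled where r is under 0.9, and each column 1 of the 18 libraries. Colour is log2(CPM + 0.1) minus the gene's own mean, with colours ending at -1.5 and 1.5. The upper rows share 1 pattern, blue at 2 weeks and red in 5 of the 6 endpoint libraries, and the lowest rows (Rpl39l, Rps27l, Rps4y2, Rpl3l and Rpl7l1) do not follow it.

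Levels per kilobase of transcript differed between genes whose proteins, apart from the stalk proteins, stand in equal number in each ribosome. Over the 76 tested core genes the mean of the 18 libraries ran from 2.03 CPM per kb (Rpl30) to 1579 CPM per kb (Rplp1), with the middle 50% of genes between 328 and 645. Rplp1, a stalk protein of the large subunit, and Rps15, a small subunit protein (1162 CPM per kb), were the highest. Rpl30, Rpl34 (4.67 CPM per kb) and Rps27 (5.71 CPM per kb) were far below the other core genes, of which the next was Rps15a at 50.3 on a transcript of 5130 bases. Rpl26 and Rpl10l had 0 counts in all 18 libraries, which allows at most 0.186 CPM in the shallowest library (3 counts, counting error only).

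Reads from these genes can match more than 1 place in the genome. Near copies were counted as other annotated genes or pseudogenes with a stretch at least 95% identical over at least 90% of the coding sequence. Of 83 genes searched, 77 had at least 1 near copy and 23 had an identical one. The median was 5 copies and the highest 56 (Rpl21), and Rpl26 had 6. The sources used here do not say how reads with several matches were counted, so levels of single genes are uncertain, and the part of the copies in the low levels of Rpl30, Rpl34, Rps27 and Rpl26 was not tested.

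Between 2 weeks and the endpoint, the transcripts of both subunits rose together. Averaged over genotypes, 72 of 82 genes were called higher at the endpoint and 1 lower (Rps27l) by edgeR's quasi-likelihood test at an adjusted p under 0.05, while 13.4% of all tested genes were called in this comparison, 6.41% higher and 6.94% lower. The median log2 difference was 0.79, a 1.73-fold higher level, against 0.05 over all tested genes, and 77 of 82 differences were positive (53.6% of all genes). DESeq2 called 73 higher and 1 lower, and 16.6% of its genes. Of the small subunit genes 30 of 33 were called higher, with a median of 0.81, and of the large subunit genes 42 of 49, with a median of 0.77. For 28 of 82 genes every endpoint library exceeded every 2-week library, which held for 2.67% of all tested genes, and for 0 of 82 was every endpoint library lower (3.49% of all genes). These bulk values do not tell more ribosomal protein transcripts per cell from more cells of a kind that holds many. When only the 4 groups compared were fitted, 44 genes were called higher and 0 lower, with 605 of all genes called.

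Among the large subunit genes Rpl36 (chr17:56610094-56614246, GRCm38) had the smallest p. Its level in WT libraries 1 to 3 was 247, 197 and 193 CPM untreated, 161, 147 and 150 CPM at 2 weeks, and 310.0, 349 and 327 CPM at the endpoint. In Cip2a-/- it was 181, 221 and 261 CPM untreated, 167, 191 and 164 CPM at 2 weeks, and 310.1, 219 and 433 CPM at the endpoint. No endpoint library overlapped a 2-week library in either genotype, and the difference was 0.99 ± 0.15 (log2, SE from the fit to all 18 libraries, n = 6 libraries at each time, adjusted p = 0.0037).

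Other large subunit genes had called increases of about the same size. Rpl3 (chr15:80077781-80083406), a core protein near the peptide-bond-forming centre, had 235, 323 and 388 CPM as lowest, median and highest at 2 weeks, and 483, 649 and 942 CPM in endpoint glands (log2 difference 1.03 ± 0.18, adjusted p = 0.0073). Rpl28 had 251, 263 and 308 CPM at 2 weeks, and 337, 561 and 750.0 CPM in endpoint glands (1.01 ± 0.18, adjusted p = 0.0074). In these genes the times did not overlap, with Cip2a-/- library 2 the lowest at the endpoint and Cip2a-/- library 3 the highest. Rpl14 behaved in the same way, from 244, 269 and 333 CPM to 366, 541 and 693 CPM (0.98 ± 0.16, adjusted p = 0.0049). Rpl12, a protein at the base of the stalk, overlapped between times, with 275, 325 and 429 CPM at 2 weeks, and 403, 679.5 and 982 CPM in endpoint glands (0.98 ± 0.22, adjusted p = 0.013).

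The stalk of the large subunit, which recruits translation factors, is built of Rplp0, Rplp1 and Rplp2. Rplp2 (chr7:141447651-141451359) had 534, 361 and 390.4 CPM in WT untreated libraries 1 to 3, 276, 302 and 355 CPM at 2 weeks, and 639.9, 629 and 697 CPM at the endpoint. In Cip2a-/- it had 327, 404 and 482 CPM untreated, 342, 413 and 348 CPM at 2 weeks, and 584, 506 and 632 CPM at the endpoint. All endpoint libraries were above all 2-week libraries (log2 difference 0.86 ± 0.14, adjusted p = 0.0046). Rplp0 (0.81 ± 0.20, adjusted p = 0.019) and Rplp1 (0.71 ± 0.18, adjusted p = 0.023) were also called, although Cip2a-/- endpoint library 2 lay inside the 2-week range for both. Without WT 2-week library 2 neither Rplp0 nor Rplp1 was called (adjusted p = 0.05005 and 0.0580), and without WT 2-week library 3 or Cip2a-/- endpoint library 3 Rplp1 was not (adjusted p = 0.0534 for each). Neither was called when only the groups compared were fitted (adjusted p = 0.0582 and 0.0706). Rplp1 was also not called with each library's trend with transcript length removed (adjusted p = 0.0513), or without the endpoint library of highest score in each genotype (adjusted p = 0.0647).

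In the small subunit, Rps6 (chr4:86854099-86857367), the protein phosphorylated by S6 kinase downstream of mTORC1, followed the same course. Its WT levels were 255, 225 and 230.0 CPM untreated, 197, 169 and 188 CPM at 2 weeks, and 356, 361 and 357 CPM at the endpoint. In Cip2a-/- they were 196, 283 and 304 CPM untreated, 202, 228 and 192 CPM at 2 weeks, and 347, 261 and 482 CPM at the endpoint. The times did not overlap (log2 difference 0.88 ± 0.15, adjusted p = 0.0050). Rpsa, the small subunit protein also known as a laminin receptor precursor, had 597, 699 and 877 CPM as lowest, median and highest at 2 weeks, and 657, 1404 and 1571 CPM in endpoint glands, with overlap (0.80 ± 0.21, adjusted p = 0.026). Its call was lost without any 1 of WT 2-week libraries 1, 2 and 3, Cip2a-/- 2-week library 3 and Cip2a-/- endpoint library 3, with adjusted p between 0.0501 and 0.0638. It was also lost when only the groups compared were fitted (adjusted p = 0.0731), and without the endpoint library of highest score in each genotype (adjusted p = 0.0698).

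The Mdm2-binding proteins Rpl5 and Rpl11 also rose. Rpl5 had 224, 279 and 312 CPM as lowest, median and highest at 2 weeks, and 320, 486 and 664 CPM in endpoint glands (log2 difference 0.82 ± 0.17, adjusted p = 0.010). Rpl11 had 218, 277 and 331 CPM at 2 weeks, and 342, 467 and 638 CPM in endpoint glands (0.78 ± 0.15, adjusted p = 0.0084). In both genes the lowest endpoint library was above the highest 2-week library.

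Rps27l was the 1 gene of the set called lower at the endpoint than at 2 weeks, among 5 with a negative difference. It is a paralog of Rps27 on chr9:66944624-66949522 and a known target of p53. WT libraries 1 to 3 had 59.4, 54.5 and 55.8 CPM untreated, 57.3, 60.2 and 104 CPM at 2 weeks, and 65.7, 60.8 and 54.9 CPM at the endpoint. Cip2a-/- libraries had 55.3, 65.2 and 55.5 CPM untreated, 142, 102 and 91.1 CPM at 2 weeks, and 75.4, 59.4 and 60.5 CPM at the endpoint. All 3 Cip2a-/- libraries and WT library 3 at 2 weeks were above every untreated and every endpoint library, and WT libraries 1 and 2 at 2 weeks were not.

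The endpoint level of Rps27l was lower than at 2 weeks by -0.53 ± 0.15 on the log2 scale (adjusted p = 0.035). That call was lost without WT 2-week library 3, Cip2a-/- 2-week library 1, WT endpoint library 3, Cip2a-/- endpoint library 2 or Cip2a-/- endpoint library 3, each alone, with adjusted p between 0.0612 and 0.0858. Fitting only the groups compared also lost it (adjusted p = 0.102), as did leaving out the endpoint library of highest score in each genotype (adjusted p = 0.0677). Against untreated glands the 2-week level was 0.66 ± 0.15 higher, with an adjusted p of 0.26 in edgeR and 0.021 in DESeq2. Within Cip2a-/- the same difference was 0.93 ± 0.22 (adjusted p = 0.46 in edgeR and 0.033 in DESeq2) and within WT 0.38 ± 0.22 (adjusted p = 0.95). The test of whether these 2 effects differ gave 0.54 ± 0.31 (adjusted p = 1.00), so no difference between the genotypes was shown. Rps27l had 0 near copies, and its transcript of 499 bases is among the shorter ones of the set.

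**Figure D3:**
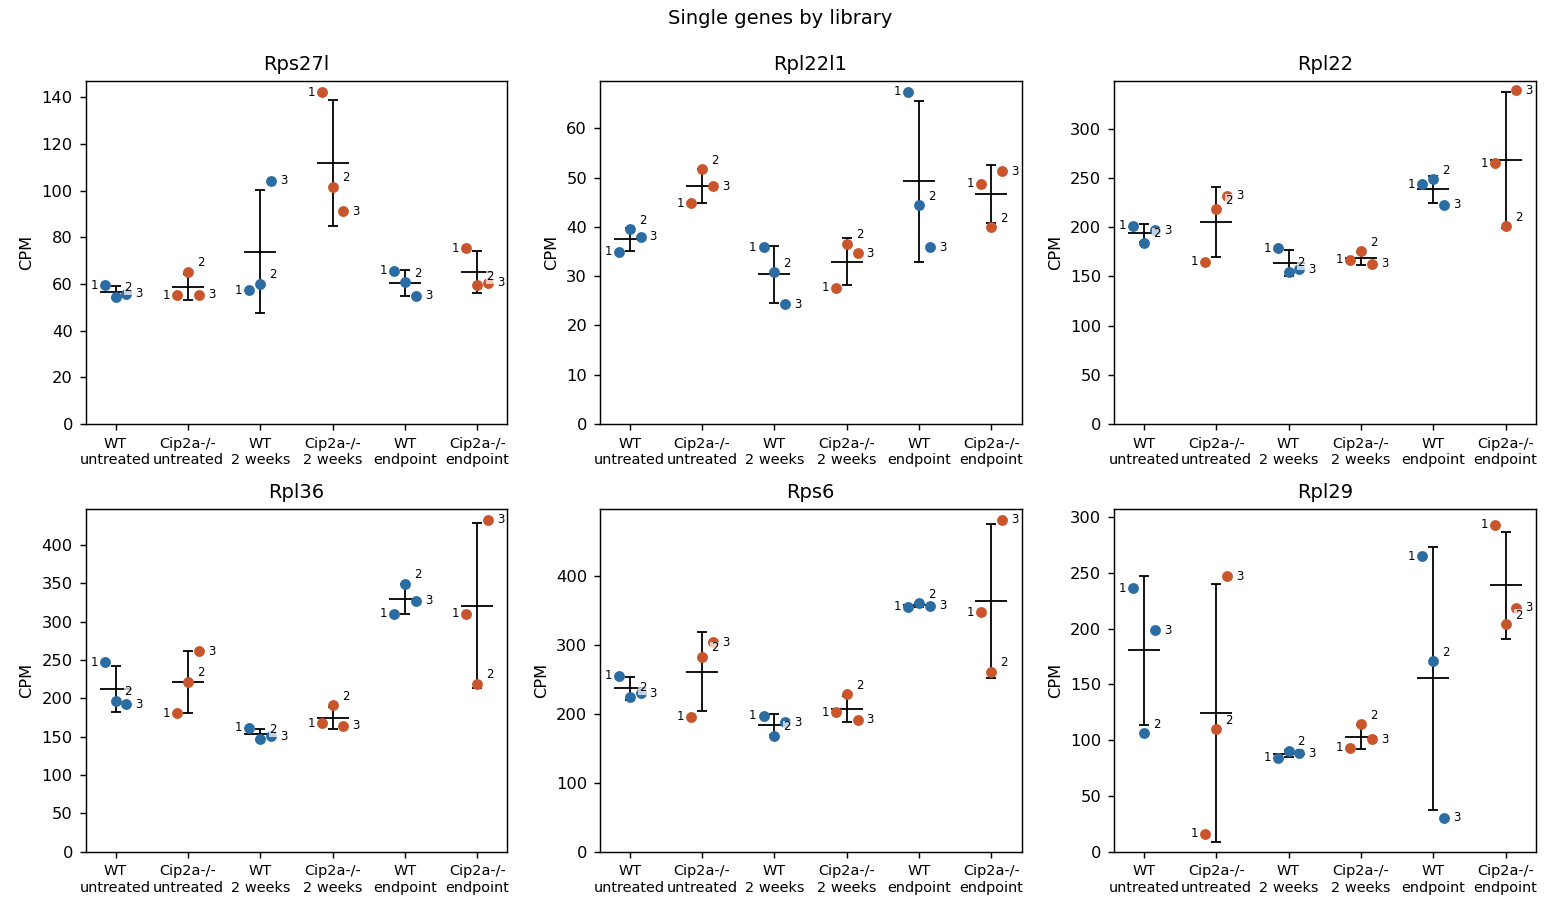
CPM in the 18 libraries is plotted for 6 genes, with the replicate number beside each point and the mean and SD of each group (n = 3). Rps27l is highest at 2 weeks in 4 libraries (91.1 to 142 CPM), while Rpl36 and Rps6 are lowest at 2 weeks, and Rpl29 drops to 16.3 and 30.6 CPM in 2 libraries.

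Of the other divergent paralogs, Rpl22l1 was called higher and the rest were not called. Rpl22l1, the paralog of Rpl22, had 24.3, 32.7 and 36.6 CPM as lowest, median and highest at 2 weeks, and 35.9, 46.6 and 67.4 CPM in endpoint glands (log2 difference 0.60 ± 0.15, adjusted p = 0.020). Rpl22 itself changed by 0.61 ± 0.13 (adjusted p = 0.010), and the ratio of the 2 genes overlapped between times, with Rpl22l1 at 15.5 to 21.3 counts per 100 of Rpl22 at 2 weeks and 15.1 to 27.7 at the endpoint. The Rpl22l1 call was lost after removal of the length trend (adjusted p = 0.11) and without WT 2-week library 3 (adjusted p = 0.0525). It was lost too with only the groups compared fitted (adjusted p = 0.0735) and without the endpoint library of highest score in each genotype (adjusted p = 0.0506). Rpl7l1 (-0.03 ± 0.12, adjusted p = 0.87) and Rps4y2 (-0.15 ± 0.20, adjusted p = 0.63) were not called, while their partners Rpl7 (0.67 ± 0.16, adjusted p = 0.018) and Rps4x (0.80 ± 0.17, adjusted p = 0.011) were. Rps4y2 stood at 4.35 to 8.16 counts per 100 of Rps4x at 2 weeks and at 1.62 to 5.78 at the endpoint, ranges that overlapped. Rpl7l1 stood at 11.6 to 18.3 counts per 100 of Rpl7 at 2 weeks and at 5.03 to 10.9 at the endpoint, without overlap. These ratios were not tested.

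Rpl3l, the striated-muscle paralog of Rpl3, ranged from 0.322 to 205 CPM. It was highest in Cip2a-/- 2-week library 1 (205 CPM), WT endpoint library 1 (159 CPM) and WT untreated library 1 (74.4 CPM), which were also the 3 libraries with the highest summed skeletal muscle markers (57690, 36455 and 29094 CPM). Its difference between the endpoint and 2 weeks was -1.57 ± 1.5 (adjusted p = 0.50) and changed sign when single libraries were left out, between -4.61 and 1.25. Rpl39l, a paralog best known from testis, stayed between 0.380 and 8.28 CPM (-0.99 ± 0.51, adjusted p = 0.21).

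Of the 76 core genes, 5 were not called between 2 weeks and the endpoint. Rps15a (0.61 ± 0.20, adjusted p = 0.0515), Rpl15 (0.33 ± 0.15, adjusted p = 0.16) and Rpl34 (0.53 ± 0.25, adjusted p = 0.17) had positive differences, as did Rpl30 (0.18 ± 0.31, adjusted p = 0.73) at 0.806 to 2.90 CPM. Rpl29, with 27 near copies, had 84.3 to 115 CPM in the 6 libraries at 2 weeks, a closer range than at any other time. Elsewhere it ranged from 107 to 293 CPM except in Cip2a-/- untreated library 1 (16.3 CPM) and WT endpoint library 3 (30.6 CPM), and its difference was 1.02 ± 0.52 (adjusted p = 0.20). Those 2 libraries were not low for the other core genes as a group to that extent, with scores of -0.43 and 0.29. Rps27, at 1.23 to 5.75 CPM, was called (0.89 ± 0.28, adjusted p = 0.048), but not without any 1 of the 6 untreated libraries, the 6 libraries at 2 weeks, WT endpoint libraries 2 and 3, and Cip2a-/- endpoint library 3. Its adjusted p then lay between 0.0554 and 0.124. The Rps27 call was also lost with the length trend removed (adjusted p = 0.156) and with only the groups compared fitted (adjusted p = 0.120). Leaving out the endpoint library of highest score in each genotype lost it as well (adjusted p = 0.0643).

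Within each genotype the same comparison, added after the data were seen, had about the same size and fewer calls. In WT the median difference was 0.83 and 80 of 82 differences were positive (55.5% of all genes). edgeR called 2 genes higher, Rplp2 (1.07 ± 0.20, adjusted p = 0.042) and Rpl36 (1.10 ± 0.21, adjusted p = 0.047), while 0.31% of all genes were called. At an unadjusted p under 0.05, 73 genes were higher (12.8% of all genes), and DESeq2 called 68, with 7.92% of its genes. The edgeR count was 0 or 1 without any 1 of the 6 untreated libraries, the 3 WT libraries at 2 weeks, Cip2a-/- 2-week libraries 2 and 3, and WT endpoint libraries 1 and 3. It was 5 without Cip2a-/- 2-week library 1, 23 without WT endpoint library 2, 26 without Cip2a-/- endpoint library 2 and 21 without Cip2a-/- endpoint library 3. In Cip2a-/- the median was 0.71 and edgeR called 0 of 82, as it called 0% of all genes, with 68 higher and 2 lower at an unadjusted p under 0.05 (11.7% and 11.9% of all genes). DESeq2 called 55 higher and 2 lower there, with 9.15% of its genes. The smallest adjusted p in Cip2a-/- was that of Rpl3 (1.16 ± 0.26, adjusted p = 0.059), followed by Rpl36 (0.88 ± 0.21, adjusted p = 0.068). Without WT endpoint library 1 edgeR called 1 member there, and without Cip2a-/- endpoint library 1 it called 2.

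The difference between the genotypes in this change had a median of -0.14 over the 82 genes, with a median SE of 0.34 for a single gene. edgeR called 0 genes, as it called 0% of all genes, and 1 (Rpl3l) had an unadjusted p under 0.05 (10.3% of all genes). DESeq2 also called 0. The size of the rise was therefore not shown to depend on Cip2a at this spread.

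Ribosomal protein transcripts are short, and short and long transcripts moved apart between the libraries, so the comparison was set against transcript length. The median transcript was 829.75 bases among the tested members and 2818.5 bases among the other tested genes, and 57 of 82 members were under 1000 bases. The slope of expression on length, per doubling of length and estimated without the members, was 0.006 to 0.128 in the 6 libraries at 2 weeks and -0.155 to -0.018 in the 6 endpoint libraries, with no overlap. Untreated libraries lay between -0.098 and 0.094. Of the 6 libraries with the most negative slopes, 4 were among the 6 with the highest score.

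Other genes of the same length were compared with the members class by class. Under 500 bases, the median difference between endpoint and 2 weeks was 0.79 in 11 members and 0.31 in 166 other genes. From 500 to 749 bases it was 0.72 in 26 members and 0.21 in 358 others, and from 750 to 999 bases 0.79 in 20 members and 0.21 in 608 others. In every length class the members had the higher median. From 1000 to 1499 bases it was 0.82 in 15 members and 0.22 in 1580 others, and from 1500 to 2499 bases 0.81 in 8 members and 0.16 in 3735 others. At 2500 bases or more, 2 members had 0.70 and 8807 other genes had -0.08. Other genes of up to 2499 bases thus also had positive medians, smaller ones, while the members' difference did not fall with length (Spearman rho 0.14 across 76 core genes, which are not independent).

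With each library's length trend removed, 64 genes were called higher and 1 lower, and 63 of the genes called higher were among the 72 called before. Of all genes 1526 were then called, against 2067 before. The members' median difference was 0.62. With that trend estimated without the members, 65 were called higher, 64 of them among the 72, and the median was 0.64, with 1534 of all genes called. After subtraction of the trend from the score, the libraries at 2 weeks had -0.42 to -0.12 and the endpoint libraries 0.01 to 0.84, without overlap, and the untreated libraries -0.38 to 0.16. Unlike the slopes, the trend subtracted at the core genes overlapped between times, with -0.17 to -0.0007 at 2 weeks and -0.15 to 0.19 at the endpoint. It was negative in WT endpoint library 2 (-0.04) and in Cip2a-/- endpoint library 2 (-0.15). The subtraction raised the score of Cip2a-/- endpoint library 2 from -0.14 to 0.01. By number of near copies, 12 of 16 genes with 0 or 1 copies were called higher, 34 of 36 with 2 to 6 and 26 of 29 with 7 or more. Rank correlations of the difference with the number of copies (rho -0.23) and with the mean level (rho 0.18) were weak across the 76 core genes.

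**Figure D4:**
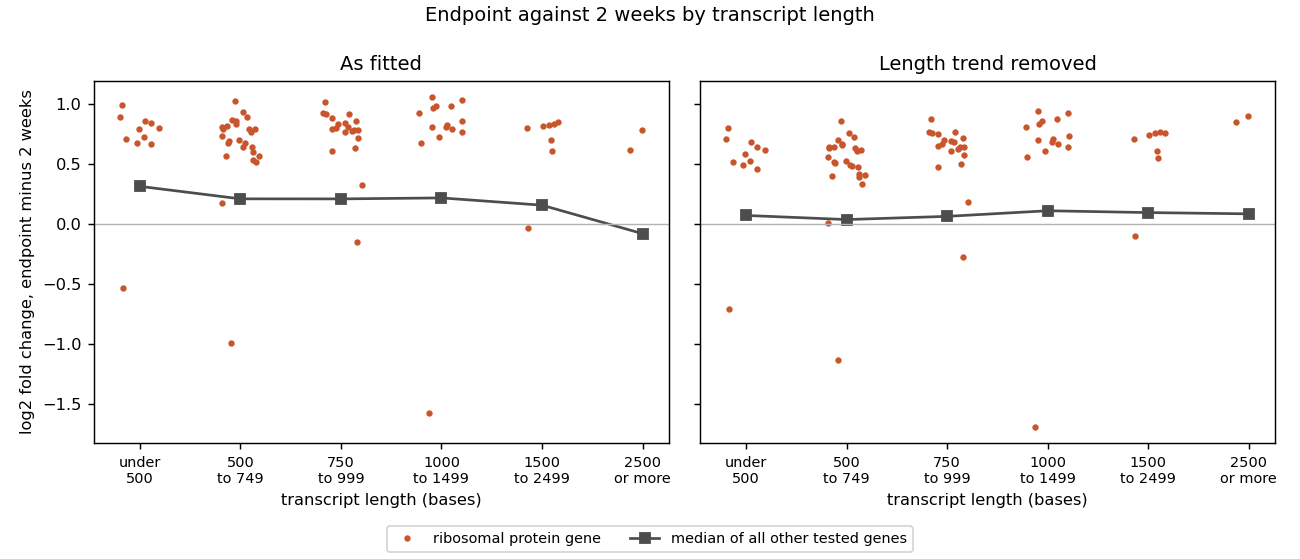
The log2 difference between endpoint and 2 weeks is plotted by transcript length as fitted (left) and with each library's length trend removed (right). Orange points are single ribosomal protein genes and grey squares the median of all other tested genes in a length class. In the shortest class the members have a median of 0.79 and the other genes 0.31, and the grey line lies between 0.04 and 0.11 after removal of the trend.

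Against untreated glands the endpoint levels were higher by less, and no member was called. Averaged over genotypes edgeR called 0 of 82 genes, while it called 0.252% of all genes. The median difference was 0.46, a 1.37-fold level, and 79 of 82 differences were positive (52.2% of all genes). At an unadjusted p under 0.05, 67 genes were higher and 1 lower (9.51% and 7.4% of all genes), and DESeq2 called 23 higher, with 4.24% of its genes. Rplp2 had the smallest adjusted p (0.56 ± 0.14, adjusted p = 0.096), followed by Rpl36 (0.58 ± 0.15, adjusted p = 0.10). Without Cip2a-/- endpoint library 2, edgeR called 5 genes. The medians were 0.47 in WT and 0.42 in Cip2a-/-, and edgeR called 0 members in each, with 0.0323% and 0% of all genes. At an unadjusted p under 0.05 there were 28 members higher in WT (6.58% of all genes) and 20 in Cip2a-/- (7.65%). DESeq2 called 1 member in WT, Rplp2, with 1.57% of its genes, and 0 in Cip2a-/-. The smallest p in Cip2a-/- were those of Rps27 (1.13 ± 0.39, adjusted p = 0.28) and of Rpl24, a large subunit gene (0.57 ± 0.20, adjusted p = 0.28).

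At 2 weeks after DMBA the levels were lower than in untreated glands, again without a call. The median difference averaged over genotypes was -0.32 (0.801-fold) and 79 of 82 differences were negative, against 50.1% of all genes. edgeR called 0 of 82 genes and 0.0258% of all genes. At an unadjusted p under 0.05, 18 genes were lower and 1 higher (3.16% and 3.4% of all genes), and DESeq2 called 1 member, Rps27l, with 0.45% of its genes. Rpl22l1 had the smallest p among the genes with a negative difference (-0.43 ± 0.15, adjusted p = 0.70). The median was -0.37 in WT and -0.28 in Cip2a-/-, and -0.19 averaged with the length trend removed. edgeR called 0 members in WT, where it called 0% of all genes, and 3 were lower at an unadjusted p under 0.05 (1.32%), Rplp2, Rps2 and Rpl36. In Cip2a-/- edgeR called 0 members and 0.0129% of all genes, with 2 members higher and 2 lower at an unadjusted p under 0.05 (2.07% and 2.47%). By DESeq2, 0 members were called in WT and 1 in Cip2a-/-, Rps27l, with 0.184% of its genes. The 2 comparisons with untreated glands and the comparison of the 2 times share libraries, so their values are not independent of each other.

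Loss of Cip2a was not associated with a called difference in any member. The median difference of Cip2a-/- from WT was 0.09 in untreated glands, 0.18 at 2 weeks, 0.04 at the endpoint and 0.10 averaged over the 3 conditions, where the median SE of a single gene was 0.14. Averaged, 78 of 82 differences were positive, against 54.3% of all genes. edgeR called 0 of 82 genes in each of these comparisons, while at most 0.00646% of all genes were called, which is 1 gene, and DESeq2 also called 0. At an unadjusted p under 0.05 there were 0 members in untreated glands (2.27% of all genes), 1 at 2 weeks (2.44%), 1 at the endpoint (10.7%) and 0 averaged (0.917%). These were Rps27l at 2 weeks, 0.59 ± 0.22 higher in Cip2a-/- (adjusted p = 1.00), and Rpl3l at the endpoint (-5.70 ± 2.51, adjusted p = 0.46). In untreated glands the smallest p were those of Rpl22l1 (0.36 ± 0.21, adjusted p = 1.00) and Rps4y2 (-0.48 ± 0.28, adjusted p = 1.00). The endpoint median was -0.21 without Cip2a-/- library 3, just below 0 without Cip2a-/- library 1, and 0.27 without Cip2a-/- library 2. The untreated median was -0.06 without Cip2a-/- library 3. The interactions of genotype with DMBA at 2 weeks (median 0.10) and at the endpoint (median -0.05) had 0 members called by edgeR (0% of all genes) or DESeq2. At an unadjusted p under 0.05 they had 0 members, against 2.9% and 10% of all genes.

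Other genes of the translation machinery were read from the same fit between 2 weeks and the endpoint. Of 5 tested genes linked to cytosolic ribosomal proteins but outside the symbol rule, 3 were called higher and 0 lower, among them Fau, which encodes Rps30 fused to a ubiquitin-like protein (260 ± 33 CPM at 2 weeks against 493 ± 108 CPM in endpoint glands, SD, n = 6 each, log2 difference 0.93 ± 0.18, adjusted p = 0.0090). These counts stand beside 6.41% of all genes called higher and 6.94% lower. Of 19 translation factors and other transcripts of the TOP class, 8 were called higher and 0 lower, with a median of 0.50, and DESeq2 called 13 higher, with 16.6% of its genes. Eif3f (0.93 ± 0.14, adjusted p = 0.0035) and Eif3h (0.67 ± 0.13, adjusted p = 0.0089), subunits of the initiation factor that binds the small subunit, had the smallest p.

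Between 2 weeks and the endpoint edgeR called 6.41% of all tested genes higher and 6.94% lower, and DESeq2 called 16.6% of its genes. Of 33 ribosome biogenesis genes, which build the subunits, 9 were called higher and 1 lower, with a median of 0.28, and DESeq2 called 14 higher and 1 lower. The smallest p were those of Nob1, the nuclease that finishes the small subunit RNA (0.60 ± 0.14, adjusted p = 0.017), and of Pes1, a large subunit assembly factor (0.38 ± 0.09, adjusted p = 0.019). Of 17 genes of mTORC1, LARP1 and transcriptional control 3 were called higher and 0 lower, with a median of -0.05. These included Rps6kb2, an S6 kinase (0.49 ± 0.10, adjusted p = 0.010), and Myc, a transcription factor that drives ribosome synthesis (1.26 ± 0.37, adjusted p = 0.039).

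In 2 sets of genes for mitochondrial proteins the median was positive in WT and negative in Cip2a-/-, while that of the cytosolic ribosomal protein genes was 0.83 in WT and 0.71 in Cip2a-/-. These signs were not particular to the 2 sets. Markers of brown adipocytes (2.21 and -0.20), skeletal muscle (2.42 and -6.77), B cells (7.74 and -2.09) and T cells (3.52 and -2.20) had them too. So did markers of macrophages (0.33 and -0.18) and cycling cells (0.92 and -0.15). Luminal (-0.71 and 1.11), endothelial (-0.19 and 0.60) and mast cell markers (-0.23 and 0.40) had the opposite signs. Mitochondrial ribosomal protein genes, which serve a separate ribosome, had 5 of 76 called higher and 0 lower, with a median of 0.16 averaged over genotypes. The count called higher was close to the share over all tested genes (6.41% higher and 6.94% lower). DESeq2 called 9 of the 76 higher, while it called 16.6% of its genes. The median of the 76 genes was 0.46 in WT (75 of 76 positive) and -0.14 in Cip2a-/- (20 of 76 positive). In the test of that difference between genotypes, 17 of 76 had an unadjusted p under 0.05 (10.3% of all genes) and 0 were called by edgeR or DESeq2. Nuclear genes of oxidative phosphorylation, which encode enzymes of the mitochondrial respiratory chain, had 0 of 29 called by edgeR (13.4% of all genes) and a median of 0.32. Of the 29, 2 had an unadjusted p under 0.05 and 1 was called by DESeq2 (Cox4i1), with 16.6% of its genes. The median of the 29 genes was 0.82 in WT (28 of 29 positive) and -0.20 in Cip2a-/- (4 of 29 positive). In the test of the difference between genotypes, 1 of 29 had an unadjusted p under 0.05 and 0 were called by edgeR or DESeq2.

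Markers of cell types moved with the same comparison, in which 6.41% of all tested genes were called higher and 6.94% lower. Of 6 fibroblast markers 5 were called lower and 0 higher (median -1.79), and their summed level was 4421 to 10997 CPM at 2 weeks against 575 to 3604 CPM in endpoint glands, with no overlap and no marker at 0 in any library. Of 4 neutrophil markers 2 were called higher, with sums of 9.72 to 21.9 CPM at 2 weeks against 7.47 to 249 CPM in endpoint glands, the highest in Cip2a-/- endpoint library 3, which also had the highest erythroid sum (1513 CPM) and the highest ribosomal protein score. B cell markers summed to 1.17 to 229 CPM at 2 weeks against 3.48 to 1809 CPM in endpoint glands, with Ms4a1, Pax5 and Cr2 at 0 in at least 1 library. The median of the 7 B cell markers was 7.74 in WT (7 of 7 positive) and -2.09 in Cip2a-/- (0 of 7 positive), with the highest sums of these 2 times in WT endpoint libraries 1 and 3 (1809 and 386 CPM) and in Cip2a-/- 2-week library 2 (229 CPM). In the test of that difference between genotypes all 7 had an unadjusted p under 0.05, edgeR called 0 and DESeq2 called 7. Among 9 luminal markers Esr1 alone was called, lower, and their median was -0.71 in WT and 1.11 in Cip2a-/-. The other called markers were Madcam1 of lymph node stroma (3.09 ± 0.57, adjusted p = 0.0075), Alas2 of erythroid cells (3.07 ± 0.80, adjusted p = 0.024) and Elovl3 of brown adipocytes (3.27 ± 1.03, adjusted p = 0.049), which were higher, and Mrc1 of macrophages (-1.20 ± 0.38, adjusted p = 0.0495), which was lower. Mrc1 does not stand for its list, because 4 of the 6 macrophage markers had positive differences (median 0.15). Of 5 brown adipocyte markers 4 were positive averaged over genotypes (median 1.57), but 2 of 5 in Cip2a-/- (median -0.20). All 5 tested lymph node stroma markers were positive, and Alas2 was the 1 erythroid marker tested. The part of these cells in the ribosomal protein levels was not tested. Within the endpoint, the library with the lowest fibroblast sum (WT library 1, 575 CPM) had a score of 0.50 and that with the next lowest (Cip2a-/- library 2, 921 CPM) a score of -0.14. These are 2 of the 6 endpoint libraries, and the relation between this sum and the score was not tested. Without the 2 libraries richest in B cell markers in their groups (WT endpoint library 1 and Cip2a-/- 2-week library 2) 70 members were called higher, with 2210 of all genes called. Without the endpoint library of highest score in each genotype 60 were, with 1825 of all genes called.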

How the data were processed

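Read counts per gene symbol in 18 mammary gland libraries were deposited by the authors, unnormalized per the file headers and values. Per the labels' protocols, libraries were made with TruSeq Stranded mRNA. Per the submitters' processing notes, the tools were bcl2fastq 2.17, STAR 2.5.2b and Subread 1.5.1, with mm10. The sources used here do not give the annotation, the strand setting or the treatment of reads with several matches.

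Counts were fitted with edgeR 4.0.16 (R 4.3.3): filterByExpr (minimum count 10, total 15), TMM scaling, 1 term per group over all 18 libraries, quasi-likelihood F-tests, and Benjamini-Hochberg adjustment over the 15482 genes tested. Calls were made at adjusted p under 0.05. The SE of an edgeR difference is its absolute log2 value divided by the square root of its F-statistic. It thus rests on the fit to all 18 libraries and not on the compared libraries alone. The fit was run on simulated counts whose spread was the same for every gene, unlike in these libraries. That run checks the code and does not show how the fit behaves on these libraries. Log2 CPM used a prior count of 2. DESeq2 1.42.0, other scalings, no filter, removal of a per-library spline of log2 CPM on transcript length (4 degrees of freedom), a replicate block, and leaving out each library were alternatives. Where leaving out a library left 2 in its group, the shared spread of all groups was used. The labels do not say that the libraries of a group came from separate animals, so p-values measure the spread between these libraries.

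The members, gene lists and comparisons were chosen with earlier results of these data known, and Rps4y2 was added to the paralogs once the table's symbols were seen. Named genes were the paralogs, stalk and anchor genes, Rps6, Rpl5, Rpl11 and Rpl26, the 2 highest and 2 lowest core genes per kb, up to 6 called genes in each direction or the 2 of smallest p per comparison, and the 4 core genes least like the rest. Rpl22, Rpl7, Rps4x, Rps15a and Rpl15 were named after their values were seen. Some items that the rule names are not reported here. Lengths came from principal transcripts of GENCODE (GRCm38), coordinates and promoter sequences from RefSeq (GRCm38.p6), matched for all 84 members where an entry existed, and near copies from BLAST 2.17.0. A floor of 3 counts stands for 0. It covers counting error only, because PCR copies carry no molecular identifier.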

Additional observations from a re-analysis of the deposited data

How the results depend on the processing

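Between 2 weeks and the endpoint, averaged over genotypes, the count of members called higher stayed between 59 and 74 when single libraries were left out (lowest without WT 2-week library 2) and the median between 0.66 and 0.90. It was 73 with DESeq2 or median-ratio scaling, 72 with scaling factors computed without the members, 70 without the low-count filter, 64 with the length trend removed and 65 with that trend estimated without the members. Fitting only the groups compared gave 44 higher and 0 lower, with 605 of all genes called. The main fit called 2067 of all genes, DESeq2 called 3245, and leaving out single libraries gave 978 to 2610. Median-ratio scaling gave 2112, factors computed without the members 2064 and no low-count filter 1675. Removal of the length trend gave 1526, or 1534 with that trend estimated without the members. The count called lower was 0 to 1 when single libraries were left out and 0 without the 2 highest endpoint libraries.

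In WT alone the count called higher was 68 with DESeq2, 0 without the low-count filter, 0 with either removal of the length trend, 0 with only the groups compared, 0 without the 2 libraries rich in B cell markers, 5 without the 2 highest endpoint libraries, and 0 to 26 without single libraries. It rose to 23, 26 and 21 without WT endpoint library 2, Cip2a-/- endpoint library 2 and Cip2a-/- endpoint library 3. In Cip2a-/- alone DESeq2 called 55 higher and 2 lower, and leaving out single libraries gave 0 to 2 higher. Against untreated glands DESeq2 called 1 member higher at 2 weeks in Cip2a-/- and 1 averaged, and at the endpoint 1 in WT and 23 averaged. Leaving out single libraries gave 0 to 5 there. The median of the interaction of genotype and DMBA at the endpoint ranged from -0.33 (without Cip2a-/- endpoint library 3) to 0.17. Among the leading values, 852 without single libraries and 468 under the other alternatives kept their side, and 30 and 19 moved. A value that kept its side could still change in size, as from 72 to 59 members called higher. Among the further values, 55 without single libraries and 30 others became weaker, and 4 and 7 stronger. The cause of these changes was not tested. The 3 comparisons of the endpoint with 2 weeks within and between genotypes, the length trend estimated without members, and the 2 library sets left out were added after the data were seen.

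Replicate numbers do not pair the libraries: of 45 same-numbered pairs 17 had correlated deviations over 0.1 (median r 0.0006), and 7 of 18 libraries were closest to their own number. With the replicate block 70 members were called higher and 1 lower between 2 weeks and the endpoint, with a median of 0.78, and 1 in WT alone. At 16121743 to 24586404 counts per library, the values of Rpl30, Rpl34, Rps27 and Rpl39l rest on few counts, and Rpl26 and Rpl10l had 0. The cause of these low levels was not tested.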
